A study of Mus musculus with 9 samples.

Results

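The T cell receptor recognises antigen, and 9 genes that encode its signaling chains, its coreceptors and the first steps inside the cell were described in RNA-Seq libraries of mouse iris. They were taken by symbol from the deposited count files, where all 9 of 9 were found among 18349 genes: Cd3d, Cd3e, Cd3g and Cd247, which encode the CD3 and zeta chains, Cd4 and Cd8a, which encode coreceptors, the kinase genes Lck and Zap70, and Lat, the gene of a membrane adapter. The question was how far corneal alkali injury (CAI) changed these genes in the iris, and whether they differed in injured mice meant to lack VEGFR3 in lymphatic endothelial cells. The 3 groups had 3 libraries each, and each library pooled 3 irises of 1 genotype. The Sham VEGFR3 fl/fl group carried floxed alleles without Cre and received PBS on the cornea. The injured VEGFR3 fl/fl group was injured at an age of 6 weeks by sodium hydroxide (1 M, 0.5 μL) applied to the cornea over 60 seconds, and the PBS of Sham was given in the same way. The libraries labelled VEGFR3 iLECko came from injured mice that also carried Prox1-CreERT2, a tamoxifen-inducible Cre driven by a gene of lymphatic endothelium that other cells can also use. Tamoxifen at 80 mg/kg was injected on days 13 to 17 after treatment, and irises were collected at 10 weeks of age, 28 days after CAI. The floxed mice were littermates of the Cre carriers, the controls had no Cre, and sex is not given in the labels.

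In a T cell, the antigen-binding chains of the receptor have short tails and signal through the CD3 and zeta chains. Lck, held at the coreceptors CD4 and CD8, phosphorylates these chains, ZAP-70 then docks on them, and ZAP-70 phosphorylates LAT, on which further signaling proteins gather. The 3 CD3 genes are the strictest T cell markers among the 9, whereas CD247, LCK and ZAP-70 are also made by NK cells, LAT also by NK cells, mast cells and platelets, CD4 also by some dendritic cells and macrophages, and CD8 alpha also by some dendritic cells. A healthy iris holds few T cells.

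Total counts were 16617187 to 18306359 per library. Flt4, the gene of VEGFR3, had 282, 237 and 265 counts in Sham, 277, 353 and 400 in injured VEGFR3 fl/fl and 478, 370 and 476 under the label VEGFR3 iLECko. It was thus not lower under that label (log2 fold change 0.34, adjusted p = 0.2 by edgeR), and the label is used below only as a label. Counts of whole iris do not separate lymphatic endothelial cells from others, so loss of Flt4 in those cells was not tested. Prox1 had 55, 17 and 27 counts in Sham, 74, 51 and 10 in injured VEGFR3 fl/fl and 16, 20 and 21 under the label. Its log2 fold change between the injured groups was -1.29 (adjusted p = 0.256 by edgeR). The iris markers identified the tissue, with 28200 to 31600 summed CPM (counts scaled by library size and edgeR's TMM factors) for 12 genes in Sham and 4310 to 7730 after injury. After injury, 8 of the 12 fell, among them Pmel of pigment cells and Myh11 of smooth muscle (log2 fold changes -3.39 and -3.34), and 1 rose. Genes on the Y chromosome were well expressed in 3 of 3 Sham libraries (mean log2 CPM 3.58 to 5.18) and in injured VEGFR3 fl/fl replicates 1 and 2 (4.99 and 4.95), and were near the floor in injured VEGFR3 fl/fl replicate 3 (-0.65) and in all 3 libraries labelled VEGFR3 iLECko (-0.67 to -0.53). The label and the Y-linked level therefore differ in only 1 library of the injured groups, and differences between labels are also given within the libraries of low Y-linked level.

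The genes lie on 5 chromosomes of the mouse genome (RefSeq, GRCm38.p6, the assembly also called mm10). Cd3g (chr9:44969572-44980431), Cd3d (chr9:44981769-44987052) and Cd3e (chr9:44998735-45009663) form a cluster of 40.1 kb, in which Cd3g and Cd3d are transcribed away from each other, with their transcript starts 1.35 kb apart. Zap70 (chr1:36761798-36782821) and Cd247 (chr1:165779952-165871153) are on chromosome 1, Lck (chr4:129548344-129573641) on chromosome 4, Cd8a (chr6:71373427-71379171) and Cd4 (chr6:124864693-124888247) on chromosome 6, and Lat (chr7:126363827-126369705) on chromosome 7. Cd247 overlaps the neighbouring gene Pou2f1 over 6.0 kb, and it was the only gene of the 9 whose deposited counts were not whole numbers, so its counts are less certain. Lck and Lat each hold a microRNA gene, and Zap70 a pseudogene.

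**Figure D1:**
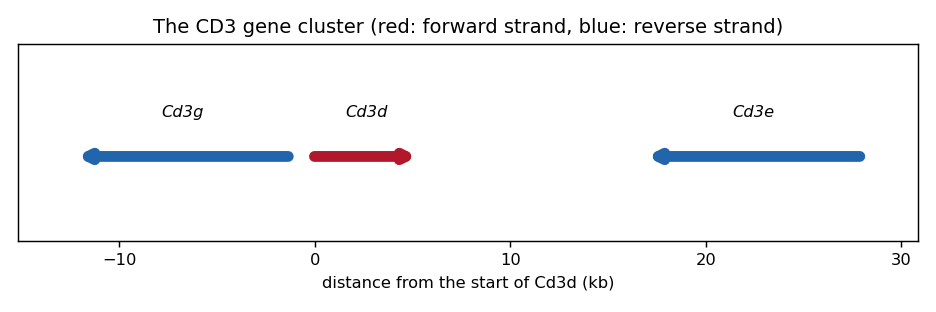
Map of the CD3 gene cluster drawn to scale, with arrows from the first to the last base of each gene in the direction of transcription and the x axis giving the distance from the transcript start of Cd3d in kb. The transcript starts of Cd3g and Cd3d are 1.35 kb apart and point away from each other, and that of Cd3e is 27.82 kb from that of Cd3d.

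Promoter windows, from 250 bases before to 50 bases after a transcript start, were found in the RefSeq table for 8 of the 9 genes. That start is the first base of the gene for Cd3g, and lies 17, 52 and 137 bases inside the gene for Cd3d, Cd3e and Lat. Those of the 3 CD3 genes and of Lat are shown because these 4 genes had the largest changes after injury among the 9. Capitals mark 3 short motifs read on both strands: GGAAGT, bound by ETS factors, TGTGGT, bound by RUNX factors, and CTTTGA, bound by TCF/LEF factors, all families with members that act in T cells. No marked match overlapped another. Each sequence runs 5′ to 3′ along the strand of its gene.
Cd3g, chr9:44980382-44980681, reverse strand: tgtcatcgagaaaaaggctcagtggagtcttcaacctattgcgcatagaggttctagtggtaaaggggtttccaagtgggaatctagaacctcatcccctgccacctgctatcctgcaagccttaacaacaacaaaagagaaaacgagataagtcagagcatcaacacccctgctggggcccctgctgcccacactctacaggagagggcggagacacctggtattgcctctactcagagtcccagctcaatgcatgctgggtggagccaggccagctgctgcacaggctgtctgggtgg
Cd3d, chr9:44981536-44981835, forward strand: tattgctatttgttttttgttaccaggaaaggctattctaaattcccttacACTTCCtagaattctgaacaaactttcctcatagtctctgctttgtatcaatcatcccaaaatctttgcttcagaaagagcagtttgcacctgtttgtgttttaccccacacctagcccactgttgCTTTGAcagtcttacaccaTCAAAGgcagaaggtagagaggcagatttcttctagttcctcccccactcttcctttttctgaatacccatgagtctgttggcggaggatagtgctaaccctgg
Cd3e, chr9:45009562-45009861, reverse strand: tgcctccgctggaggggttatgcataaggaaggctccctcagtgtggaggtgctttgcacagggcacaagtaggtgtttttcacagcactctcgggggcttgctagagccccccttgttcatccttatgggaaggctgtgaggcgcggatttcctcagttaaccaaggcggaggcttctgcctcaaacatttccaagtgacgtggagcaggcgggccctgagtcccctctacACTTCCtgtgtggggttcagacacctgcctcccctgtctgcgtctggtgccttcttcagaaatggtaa
Lat, chr7:126369519-126369818, reverse strand: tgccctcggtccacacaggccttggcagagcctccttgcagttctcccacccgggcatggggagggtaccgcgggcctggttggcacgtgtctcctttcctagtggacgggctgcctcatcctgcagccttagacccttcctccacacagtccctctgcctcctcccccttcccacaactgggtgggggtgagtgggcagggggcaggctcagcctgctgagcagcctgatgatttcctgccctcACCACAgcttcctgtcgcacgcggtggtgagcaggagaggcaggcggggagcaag
The Cd3d window held 1 ETS match and 2 TCF/LEF matches, the Cd3e window 1 ETS match and the Lat window 1 RUNX match next to the start, whereas the Cd3g window held 0. Among all 32851 promoter windows, 23.8% held the ETS letters, 16.8% the RUNX letters and 16.0% the TCF/LEF letters, so such matches are common and describe the sequence only.

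The CD3 genes were almost silent in Sham and were detected in every injured library. Cd3g, which encodes CD3 gamma, had 1, 0 and 0 counts in Sham, 97, 94 and 62 in injured VEGFR3 fl/fl and 21, 49 and 30 under the label VEGFR3 iLECko. Cd3e, which encodes CD3 epsilon, had 0, 1 and 3, then 23, 33 and 24, then 8, 12 and 5 counts in the same order. Cd3d, which encodes CD3 delta, had 0, 0 and 1, then 14, 20 and 27, then 13, 12 and 8 counts. For each of the 3 genes the groups did not overlap, with Sham lowest, the libraries labelled VEGFR3 iLECko between and injured VEGFR3 fl/fl highest. Summed over the 3 genes, the counts were 1, 1 and 4 in Sham, 134, 147 and 113 in injured VEGFR3 fl/fl and 42, 73 and 43 under the label VEGFR3 iLECko.

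After injury, Cd3g rose most, with a log2 fold change of 7.59 (SE 0.68, adjusted p = 1.49e-05 by the quasi-likelihood test of edgeR), followed by Cd3d at 5.53 (SE 0.70, adjusted p = 0.000133 by edgeR) and Cd3e at 4.26 (SE 0.65, adjusted p = 0.000421 by edgeR). Fitted folds of genes so near 0 in Sham depend on a small count that edgeR adds, so the ratios of pooled counts are also given, with 95% intervals for counting error only. The ratio was 266 for Cd3g (47.2 to 10500), 64 for Cd3d (11.1 to 2570) and 21 for Cd3e (7.89 to 78.9). The fitted values moved when the Sham library holding most of the Sham counts was left out, to 9.43 for Cd3g without Sham replicate 1 and to 7.38 for Cd3d and 5.49 for Cd3e without Sham replicate 3, and every call stayed. All 3 genes passed the filter on low counts only through injured libraries, as did Cd8a and Lat, whereas Cd247, Cd4, Lck and Zap70 reached it in all 9 libraries. In bulk tissue, fewer cells of a type and less RNA per cell cannot be told apart.

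Cd247, which encodes the zeta chain, was expressed in every library, with deposited estimates of 47.48, 31.71 and 39.56 in Sham, 149.58, 150.26 and 249.26 in injured VEGFR3 fl/fl and 127.55, 132.64 and 170.84 under the label VEGFR3 iLECko. The injured libraries under both labels lay above Sham and overlapped each other. The rise after injury was 2.27 on the log2 scale (SE 0.25, adjusted p = 5.27e-05 by edgeR), smaller than that of the CD3 genes, from a Sham level of 2.22 ± 0.40 CPM (SD, n = 3).

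**Figure D2:**
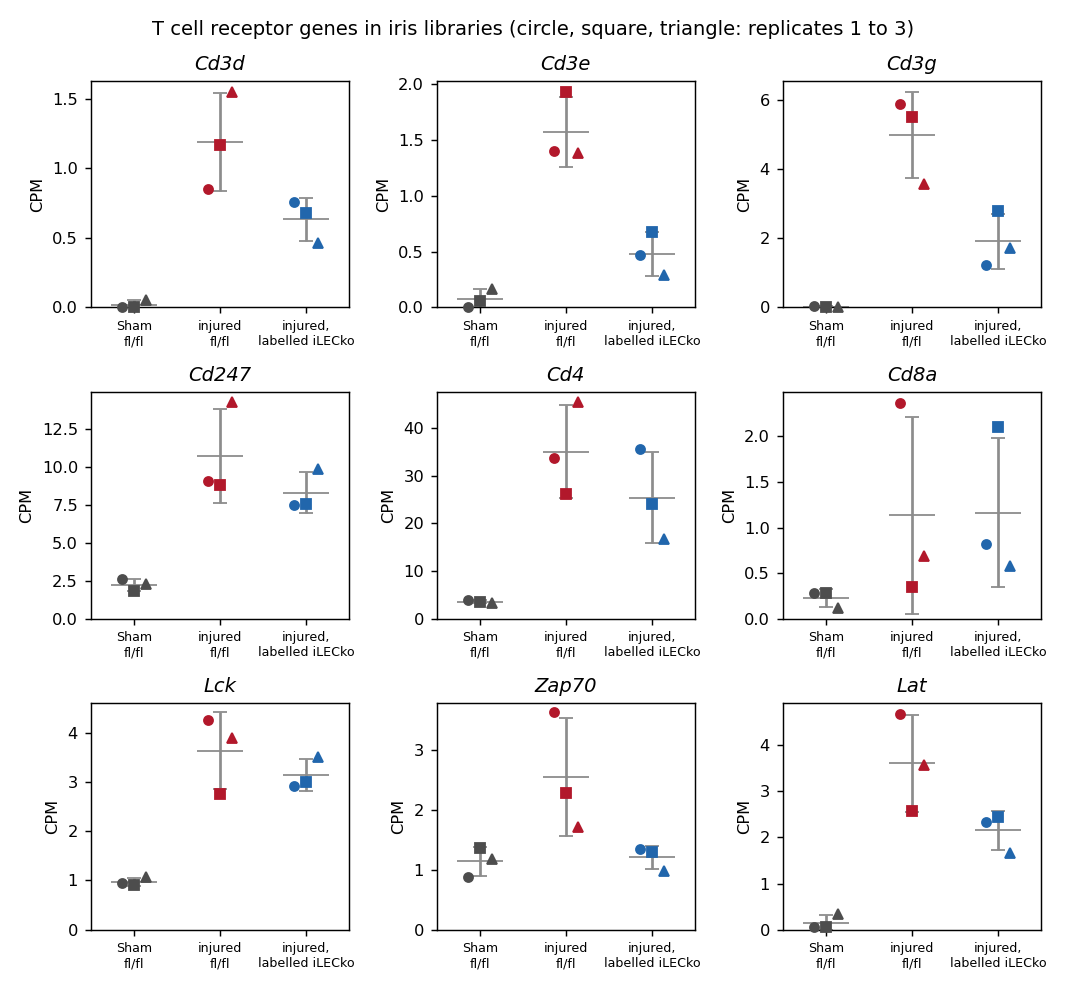
CPM of the 9 genes in each library (y axes from 0, a different scale per gene), by group on the x axis. Symbols mark replicates 1 to 3, and grey bars give the mean and SD of 3 libraries. Cd3d, Cd3e, Cd3g, Zap70 and Lat have no overlap between the injured groups, while Cd247, Cd4, Cd8a and Lck do.

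The coreceptor genes differed from each other. Cd4 was the most abundant of the 9 genes, with 69, 63 and 59 counts in Sham, 553, 445 and 790 in injured VEGFR3 fl/fl and 609, 424 and 289 under the label VEGFR3 iLECko. Its rise after injury was 3.29 on the log2 scale (SE 0.31, adjusted p = 2.11e-05 by edgeR), from 3.57 ± 0.25 to 35.0 ± 9.74 CPM (SD, n = 3). Replicate 1 under the label VEGFR3 iLECko had more Cd4 than injured VEGFR3 fl/fl replicates 1 and 2, so the injured groups overlapped.

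Cd8a had 5, 5 and 2 counts in Sham, 39, 6 and 12 in injured VEGFR3 fl/fl and 14, 37 and 10 under the label VEGFR3 iLECko. A single library in each injured group was high, and injured VEGFR3 fl/fl replicate 2 was just above Sham. The rise was 2.30 on the log2 scale (SE 0.84, adjusted p = 0.0385 by edgeR). Without injured VEGFR3 fl/fl replicate 1 it was 1.19 with an adjusted p of 0.201 by edgeR, and the call was also lost without any single Sham replicate or replicate 1 under the label VEGFR3 iLECko (adjusted p = 0.0501 to 0.117 by edgeR). Cd8b1, the partner chain, was high in the same 2 libraries, with 1, 0 and 0 counts in Sham, 34, 10 and 9 in injured VEGFR3 fl/fl and 9, 26 and 5 under the label VEGFR3 iLECko, and it rose after injury (log2 fold change 5.36, SE 1.20, adjusted p = 0.00384 by edgeR).

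The kinase genes rose less than the CD3 genes and were not silent in Sham. Lck had 17, 16 and 19 counts in Sham, 70, 47 and 68 in injured VEGFR3 fl/fl and 50, 53 and 61 under the label VEGFR3 iLECko. It rose by 1.90 on the log2 scale (SE 0.24, adjusted p = 0.000143 by edgeR), and the injured groups overlapped. Zap70 had 16, 24 and 21 counts in Sham, 60, 39 and 30 in injured VEGFR3 fl/fl and 23, 23 and 17 under the label VEGFR3 iLECko. All 3 injured VEGFR3 fl/fl libraries were above the other 6, and those labelled VEGFR3 iLECko lay in the range of Sham. The rise of Zap70 was the smallest of the 9, at 1.15 on the log2 scale (SE 0.34, adjusted p = 0.0149 by edgeR), and was no longer called without Sham replicate 1 (1.00, adjusted p = 0.0601 by edgeR) or without injured VEGFR3 fl/fl replicate 1 (0.81, adjusted p = 0.0555 by edgeR).

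Lat, the adapter on which the signal is passed on, had 1, 1 and 6 counts in Sham, 77, 44 and 62 in injured VEGFR3 fl/fl and 40, 43 and 29 under the label VEGFR3 iLECko. The 3 groups did not overlap, although injured VEGFR3 fl/fl replicate 2 was only 1 count above the nearest library of the other injured group. Its rise was 4.53 on the log2 scale (SE 0.56, adjusted p = 0.000107 by edgeR), and its ratio of pooled counts was 24 (95% counting interval 11.9 to 56.5). Without Sham replicate 3, which held 6 of the Sham counts, the fitted value was 5.84.

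After injury, Cd247, Cd4, Lck and Zap70, the 4 genes that reached the filter in all 9 libraries, were called higher at an adjusted p under 0.05 and more than 1.5-fold, where 22.1% of all 15010 genes tested were called higher. Every injured VEGFR3 fl/fl library was above every Sham library for these 4 genes, which held for 33.9% of all genes tested. The other 5 were also called and did not overlap, but they were tested only because they were high in injured libraries, so a count or median over all 9 lends no support. All genes tested had a median log2 fold change of 0.01. These genes can be expressed by the same cells, so they are not taken as independent of each other. Which cells expressed them here was not tested. Nothing in the labels says more of the replicates than that they were separate pools, so the p-values measure the spread between these pools.

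**Figure D3:**
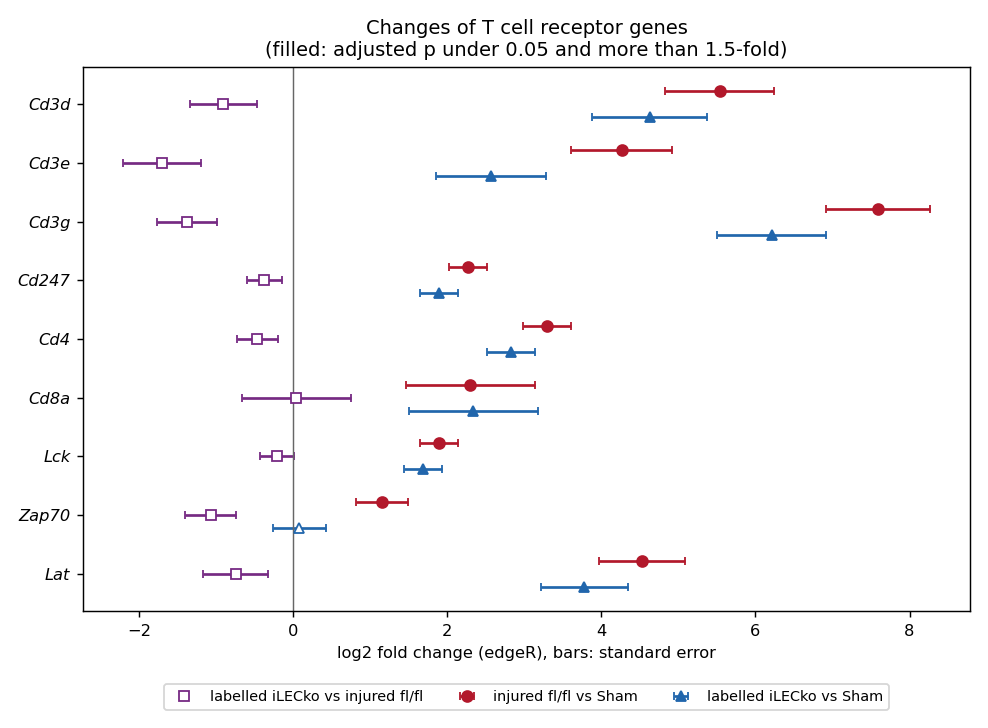
Log2 fold changes of the 9 genes with their standard errors on the x axis, for injured VEGFR3 fl/fl against Sham (circles), the label VEGFR3 iLECko against injured VEGFR3 fl/fl (squares) and the label VEGFR3 iLECko against Sham (triangles). Filled symbols were called (adjusted p under 0.05 and more than 1.5-fold): 9 circles, 0 squares and 8 triangles. The 3 comparisons share libraries.

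Between the injured groups, none of the 9 genes was called higher or lower by edgeR, where 0.573% of all genes tested were called higher and 0.466% lower. The estimates were lower under the label VEGFR3 iLECko for 8 of the 9, with a median log2 fold change of -0.74 against -0.01 over all genes tested. For 5 of the 9, Cd3d, Cd3e, Cd3g, Zap70 and Lat, all 3 libraries labelled VEGFR3 iLECko were below all 3 of injured VEGFR3 fl/fl, which held for 14.3% of all genes tested. Of these, Cd3e reached the filter level only in injured VEGFR3 fl/fl and in replicate 2 under the label VEGFR3 iLECko. Cd3d reached it only in injured VEGFR3 fl/fl and in replicates 1 and 2 under that label. Both were thus tested only because injured VEGFR3 fl/fl was high, which favours a lower estimate under the label. Counts and the median that include them lend no support. Unadjusted p-values by edgeR were under 0.05 for 3 of the 9 genes, Cd3e among them, and for 3674 of all 15010 genes tested. DESeq2 called 1 of the 9 lower, Cd3g (adjusted p = 0.0204 by DESeq2), and 282 genes lower in all.

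The largest difference was that of Cd3e, at -1.70 on the log2 scale (SE 0.51, 95% interval -2.84 to -0.55, adjusted p = 0.101 by edgeR). Cd3g differed by -1.38 (SE 0.39, 95% interval -2.27 to -0.49, adjusted p = 0.0913 by edgeR) and Zap70 by -1.07 (SE 0.34, 95% interval -1.83 to -0.32, adjusted p = 0.11 by edgeR). These 3 intervals, which are not adjusted for the number of genes, lay below 0. Those of Cd3d (-0.91, 95% interval -1.89 to 0.07) and Lat (-0.74, 95% interval -1.69 to 0.20) reached across 0, with adjusted p-values of 0.23 and 0.296 by edgeR.

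For the remaining 4 genes the estimates were smaller. Cd4 differed by -0.46 (95% interval -1.07 to 0.15), Cd247 by -0.37 (-0.89 to 0.14), Lck by -0.21 (-0.72 to 0.30) and Cd8a by 0.04 (-1.55 to 1.64), with adjusted p-values of 0.309, 0.331, 0.591 and 0.979 by edgeR. The interval of Cd8a is wide and leaves room for a change of either sign. With 1 library left out, Cd247 came to -0.11 without injured VEGFR3 fl/fl replicate 3, Cd4 to -0.23 without that library or without replicate 3 under the label VEGFR3 iLECko and to -0.78 without replicate 1 under that label, and Lck to -0.08 and -0.37 without injured VEGFR3 fl/fl replicates 1 and 2. The sign of Cd8a turned without injured VEGFR3 fl/fl replicate 2 or 3, or without replicate 2 under the label VEGFR3 iLECko.

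Within the 4 injured libraries of low Y-linked level, injured VEGFR3 fl/fl replicate 3 stood against the 3 libraries labelled VEGFR3 iLECko. It had 113 counts of the summed CD3 genes against 42, 73 and 43, 30 counts of Zap70 against 23, 23 and 17, and 62 of Lat against 40, 43 and 29. For these genes it had to be the highest of the 4, since the injured groups did not overlap. Of the others, it had 790 counts of Cd4 against 609, 424 and 289, 68 of Lck against 50, 53 and 61, and 12 of Cd8a against 14, 37 and 10. A single library gives no spread and no test. In a fit with the Y-linked level as a covariate, Cd3e differed by -1.43 (adjusted p = 0.599 by edgeR), Cd3g by -0.94 (adjusted p = 0.661 by edgeR), Cd3d by -1.24 (adjusted p = 0.579 by edgeR) and Zap70 by -0.50 (adjusted p = 0.782 by edgeR). Lat differed by -0.61, Cd247 by -0.78, Cd4 by -0.82, Lck by -0.28 and Cd8a by 0.63 in this fit, and none of the 9 was called. The signs were those found without the covariate. By over 1.5 times, the estimate of Zap70 was nearer to 0 and those of Cd247, Cd4 and Cd8a were farther from 0.

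Against Sham, 8 of the 9 genes were higher in the libraries labelled VEGFR3 iLECko, where 19.7% of all genes tested were called higher. This comparison shares its libraries with the others, and 5 of the 8, Cd3d, Cd3e, Cd3g, Cd8a and Lat, were again tested only through injured libraries. The log2 fold changes of the called genes ran from 1.69 for Lck to 6.21 for Cd3g, with 4.63 for Cd3d, 3.78 for Lat, 2.83 for Cd4, 2.57 for Cd3e, 2.34 for Cd8a and 1.90 for Cd247. The calls of Cd3e (adjusted p = 0.0133 by edgeR) and Cd8a (adjusted p = 0.0389 by edgeR) were lost without replicate 2 under the label VEGFR3 iLECko, and that of Cd8a also without any single Sham replicate. Zap70 was the exception at 0.08 (SE 0.35, adjusted p = 0.856 by edgeR), and its sign turned with scaling by library size only.

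Levels of different genes were compared per length, as approximate TPM from the longest transcript of each gene. In Sham, Cd4 was highest at 3.32, followed by Cd247 at 2.18, Zap70 at 1.46 and Lck at 1.28, and the other 5 genes were between 0.0218 and 0.211. In injured VEGFR3 fl/fl the order was Cd4 at 26.5 ± 8.28, Cd247 at 8.58 ± 2.90, Cd3g at 4.56 ± 0.98, Lat at 4.06 ± 0.92, Lck at 3.88 ± 0.71, Zap70 at 2.61 ± 0.80, Cd3d at 1.75 ± 0.62, Cd3e at 1.45 ± 0.36 and Cd8a at 0.811 ± 0.710 (SD, n = 3). Under the label VEGFR3 iLECko, Cd4 at 21.2 and Cd247 at 7.29 also came first, and Cd3e was last at 0.491. Part of the order depends on the transcript length. With the median length per gene, the order in injured VEGFR3 fl/fl was Cd4 at 38.4, Cd247 at 6.85, Lck at 5.41, Cd3g at 5.02, Cd3d at 4.17, Lat at 4.01, Zap70 at 2.43, Cd3e at 1.65 and Cd8a at 0.383, Lck at 1.69 passed Cd247 at 1.65 in Sham, and Cd8a at 0.439 was below Cd3e at 0.539 under the label VEGFR3 iLECko. Cd4 came first, and its libraries stayed above those of Cd247, in injured VEGFR3 fl/fl with both lengths. With the longest transcript, Cd247 did not overlap Cd3g, the next in order, whereas with the median length it overlapped Lck and Cd3g, and all later neighbours in the order of the longest transcript overlapped.

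The ratio of Cd4 to the CD3 genes varied between libraries. Every ratio of counts here has 0.5 added to both sides. The ratio of Cd4 to the summed CD3 genes was 13.2 to 46.3 in Sham and 3.02 to 6.96 in injured VEGFR3 fl/fl. In the libraries labelled VEGFR3 iLECko it was 5.78 to 14.3. The Sham ratios rest on 1 to 4 CD3 counts, so their size depends on the added 0.5. Injured VEGFR3 fl/fl lay below Sham without overlap (exact two-sided permutation p = 0.1, the smallest that 3 against 3 libraries can give), and the injured groups overlapped (exact permutation p = 0.3). Both statements turn when Cd3e alone stands for the CD3 genes. The ratio of Cd4 to Cd3e was 13.3 to 32.3 in injured VEGFR3 fl/fl, which overlapped 17 to 139 in Sham (exact permutation p = 0.4). That of injured VEGFR3 fl/fl lay below 34 to 71.7 under the label VEGFR3 iLECko without overlap (exact permutation p = 0.1). Sham had 0, 1 and 3 Cd3e counts, and the value of 139 comes from the library with 0. The ratio of Cd4 to Cd8a was 11.5 to 23.8 in Sham, 14.0 to 68.5 in injured VEGFR3 fl/fl and 11.3 to 42.0 under the label VEGFR3 iLECko. Its exact permutation p-values were 0.2, 0.5 and 0.4 for injury, for the injured groups and for the label against Sham. No p-value of a ratio was adjusted for the number of ratio comparisons. With Cd8b1 added to Cd8a, the log2 differences changed from 1.38 to 0.45 after injury (exact permutation p = 0.6), from -0.74 to -0.40 between the injured groups (exact permutation p = 0.5) and from 0.64 to 0.05 for the label against Sham (exact permutation p = 0.9). The plot of Cd4 against the CD3 genes shows the 3 groups apart along the CD3 axis and the injured groups mixed along the Cd4 axis.

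**Figure D4:**
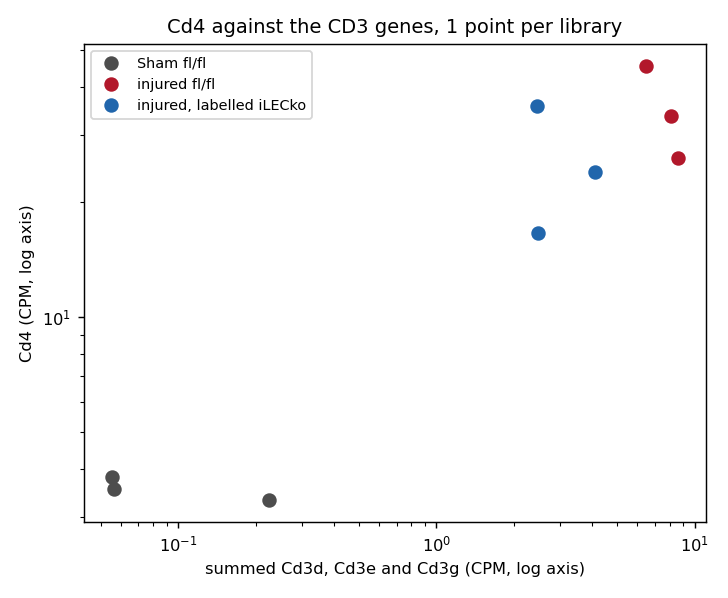
Cd4 (y axis, CPM, log scale) against the summed Cd3d, Cd3e and Cd3g (x axis, CPM, log scale), 1 point per library, coloured by group. Summed CD3 is 0.0554 to 0.225 CPM in Sham, 2.45 to 4.13 under the label VEGFR3 iLECko and 6.49 to 8.61 in injured VEGFR3 fl/fl, while Cd4 of the injured groups overlaps at 16.6 to 35.6 and 26.1 to 45.4 CPM.

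Ptprc, which encodes CD45 of all white blood cells, put these genes on the scale of the leukocytes. It had 145, 131 and 143 counts in Sham, 1857, 1887 and 2574 in injured VEGFR3 fl/fl and 1614, 2030 and 2695 under the label VEGFR3 iLECko, a rise of 3.98 on the log2 scale after injury and a difference of -0.03 between the injured groups (adjusted p = 0.943 by edgeR). Per 1000 Ptprc counts there were 6.9, 7.63 and 28 counts of the CD3 genes in Sham, 72.2, 77.9 and 43.9 in injured VEGFR3 fl/fl and 26, 36 and 16 under the label VEGFR3 iLECko. The CD3 genes were thus higher per Ptprc count after injury in both injured groups compared with 2 of 3 Sham libraries, and the injured groups did not overlap. For Cd4, the counts were 41.3% to 48.1% of those of Ptprc in Sham, 23.6% to 30.7% in injured VEGFR3 fl/fl and 10.7% to 37.7% under the label VEGFR3 iLECko.

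Of 56 other genes of T cell receptor signaling, 51 were found in the files and 43 passed the filter. The constant chains Trac, Trbc1, Trbc2, Trdc and Tcrg-C1 were not analysed here. After injury, 32 of the 43 rose and 4 fell, where 22.1% of all genes tested were called higher and 17.5% lower. The median log2 fold change of the 43 was 2.57. Genes near 0 in Sham, such as Cd8b1, Cd2, Cd5 and Sh2d2a, were tested only because they were high in injured libraries. A count or median that includes such genes lends no support. Downstream kinases, adapters and costimulatory molecules rose in 18 of 21 genes and fell in 1. The largest rise was that of Cd5, a receptor that tunes the signal (0, 1 and 0 counts in Sham and 16, 14 and 25 in injured VEGFR3 fl/fl, log2 fold change 5.39). Prkcq, which encodes protein kinase C theta and is also expressed outside T cells, fell from 1619, 1522 and 1589 to 279, 176 and 253 counts (log2 fold change -2.67, adjusted p = 1.2e-05 by edgeR).

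Negative regulators rose in 8 of 12 genes and fell in 0. Sla, which encodes an adapter that dampens the receptor, rose by 4.54 and Ptpn22, a phosphatase that acts on LCK and ZAP-70, by 2.93 on the log2 scale. T lineage transcription factors were mixed, with 5 of 9 higher and 3 lower. Runx3, a factor of CD8 T cells and other leukocytes, rose by 4.37 and Gata3, a factor of T helper cells, by 3.84 on the log2 scale. Tcf7 and Lef1, which serve in T cells but are not restricted to them, fell by 1.58 and 2.57 on the log2 scale. Their Sham libraries had 869 to 928 and 372 to 466 counts, far above those of the CD3 genes. Sit1, Themis, Ubash3a and Tbx21 had 0 counts in all 3 Sham libraries and at most 11 elsewhere, and were not tested.

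**Figure D5:**
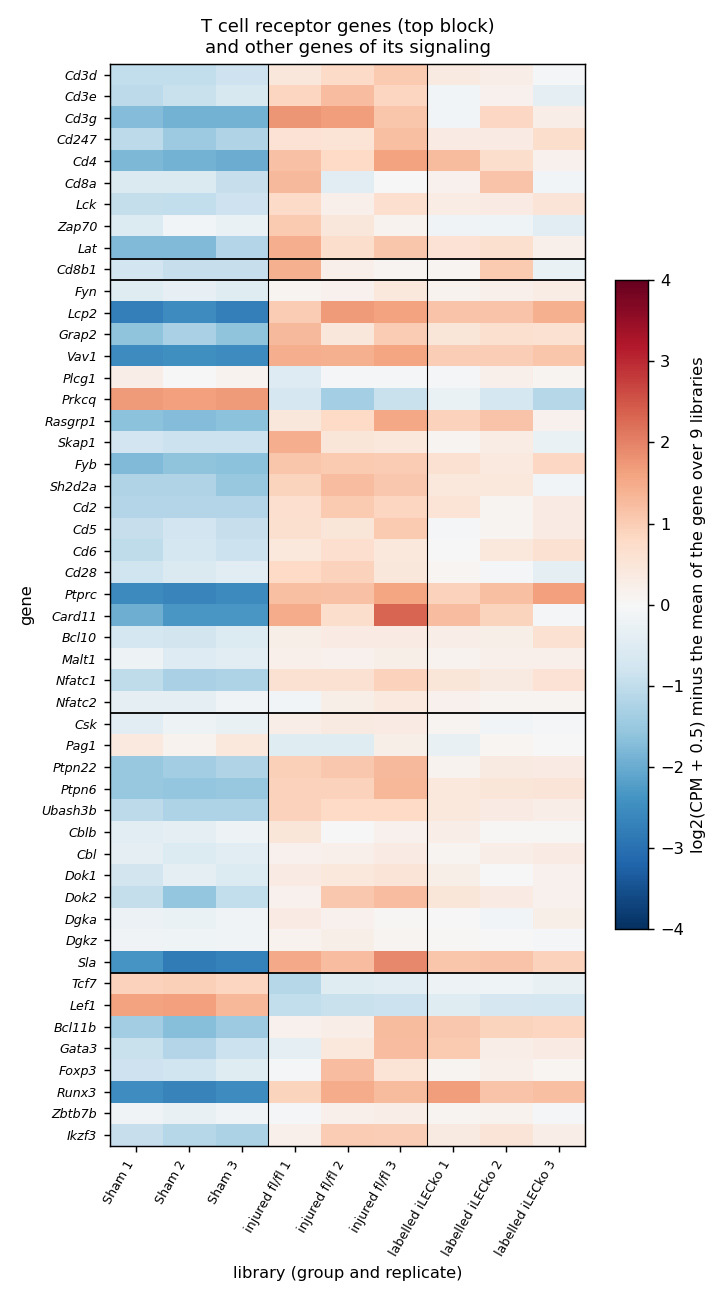
Log2(CPM + 0.5) of the 9 T cell receptor genes (top block) and 41 other genes of its signaling, minus the mean of each gene over 9 libraries (colour, from -4 to 4). Columns are libraries, and lines part the groups and the gene lists, from top to bottom the 9 genes, Cd8b1, downstream genes, negative regulators and T lineage transcription factors. Most rows are lower in the 3 Sham libraries, with Prkcq, Tcf7 and Lef1 the called exceptions.

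Between the injured groups, 1 of the 43 was called lower under the label VEGFR3 iLECko and 0 higher, with a median log2 fold change of -0.24 and 31 estimates below 0. This was Ptpn6, which encodes the phosphatase SHP-1 of most leukocytes. It had 302, 289 and 295 counts in Sham, 1542, 1581 and 2162 in injured VEGFR3 fl/fl and 1111, 1207 and 1225 under the label VEGFR3 iLECko (log2 fold change -0.61, SE 0.11, adjusted p = 0.0399 by edgeR). The call was lost when any of 7 libraries, all but injured VEGFR3 fl/fl replicates 1 and 2, was left out. Against Sham, 29 of the 43 were higher and 4 lower under the label VEGFR3 iLECko, where 19.7% of all genes tested were called higher and 15.0% lower. The limit given above for genes near 0 in Sham holds here as well.

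Markers of other cells that can express some of the 9 genes moved as well. All 4 NK cell genes tested of 10 rose after injury, led by Klrk1 and Klrb1c (log2 fold changes 5.03 and 4.66), where 22.1% of all genes tested were called higher. These 4 had 0 to 8 counts in Sham and were tested only through injured libraries, so their number lends no support. The 10 NK cell genes summed to 0.621 to 0.831 CPM in Sham, 6.32 to 11.6 in injured VEGFR3 fl/fl and 4.2 to 5.9 under the label VEGFR3 iLECko. The injured groups did not overlap in this sum, as for the CD3 genes, Zap70, Lat and the summed macrophage genes. The 6 B cell genes also summed to values that did not overlap, 4.59 to 5.95 CPM in injured VEGFR3 fl/fl and 2.13 to 4.03 under the label VEGFR3 iLECko, with a median of 1.47 in Sham. Of 8 dendritic cell genes, 7 rose, led by Itgax and Ccr7 (log2 fold changes 6.66 and 5.05), with sums of 12 to 14.2, 184 to 293 and 113 to 218 CPM in the same order. Xcr1, Flt3, Ccr7 and Cd209a among them had at most 10 counts in a Sham library and were also tested only through injured libraries. The number that rose therefore lends no support. All 9 macrophage genes rose, led by Cd68 and C1qb (log2 fold changes 4.02 and 3.96), from 387 to 398 to 3270 to 3630 CPM in injured VEGFR3 fl/fl and to 2110 to 2380 under the label VEGFR3 iLECko.

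In the macrophage list the injured groups differed by test. Adgre1, C1qa, C1qb and C1qc were lower under the label VEGFR3 iLECko, with log2 fold changes of -0.60, -0.79, -0.94 and -0.76, and Cd14 was higher at 0.86. Of all genes tested, 0.466% were called lower and 0.573% higher. None of the NK or dendritic cell genes was called between the injured groups by edgeR. Of the mast cell genes, 1 of 6 tested, Hdc, rose after injury (log2 fold change 4.69), where 22.1% of all genes tested were called higher. Cpa3 ran from 9 to 462 counts over the 9 libraries. Between the injured groups, 4 mast cell estimates were below 0, with Cpa3 at -2.07. The other 2 were above 0, with Hdc at 1.74, so Hdc does not stand for the list. Both platelet genes called of 4 tested, Pf4 and Gp1bb, rose (log2 fold changes 2.05 and 1.47), as did both B cell genes tested, Cd79b and Cd79a (2.44 and 1.55). Cd79a had 7, 5 and 4 counts in Sham and was tested only through injured libraries. No gene of the mast cell, platelet and B cell lists was called between the injured groups. Of the genes in the 6 lists of other blood cells, only Gp6 of platelets was at 0 in every library of a group, in Sham and under the label VEGFR3 iLECko. The part of these cells in the changes of Cd4, Cd8a, Cd247, Lck, Zap70 and Lat was not tested.

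Traces of neighbouring tissue moved too. The lens crystallin Cryaa rose after injury (log2 fold change 8.52), Krt5 and Krt12 of the corneal epithelium fell (-4.12 and -2.11), Rlbp1 of the retina fell by 1.32 and Hba-a2 of red blood cells by 1.41 on the log2 scale, and 0 of the 2 genes used to check for ciliary body was called. None of these lists had a gene called between the injured groups, and their part in the results above was not tested.

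Over the 9 libraries, the 5 genes whose log2 CPM was most like the mean of the 9 T cell receptor genes were Lbp, H2-M2, Akirin1, Ddhd1 and B3gnt8, out of 15001 ranked, with Pearson's r of 0.996, 0.995, 0.994, 0.994 and 0.994. The libraries share a step from Sham to injury, so that many genes have a high r. Lbp, which encodes a binding protein of bacterial lipopolysaccharide, had 276 to 311 counts in Sham, 1185 to 1977 in injured VEGFR3 fl/fl and 808 to 1056 under the label VEGFR3 iLECko. H2-M2, a nonclassical MHC class I gene, had 0 counts in all Sham libraries, 31 to 57 in injured VEGFR3 fl/fl and 20 to 24 under the label VEGFR3 iLECko. For both genes the 3 groups did not overlap, in the order seen for the CD3 genes. They were picked by likeness to the 9 genes over these same libraries, so this order follows from the choice and lends no support. With scaling by library size only, Akirin1 dropped to rank 80, while the other 4 ranked 1 to 4.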

How the data were processed

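The 9 genes, the gene lists and the tests were chosen with earlier results of these data known. Per the labels, RNA of pooled irises was made into libraries with a TruSeq mRNA kit and read as 50 bases. Per the submitters' processing notes, HISAT2 2.0.4, Bowtie2 2.2.5, DESeq2 1.4.5 and the build mm10 were used. The authors deposited estimated counts per gene for each library, not normalized, with 9.83% to 10.3% of the values in a library not whole. The program that counted, its annotation and its use of strand are not given in the sources used here. Groups followed titles and descriptions, since the genotype tags of replicates 2 and 3 under the label VEGFR3 iLECko name another VEGFR number.

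The estimated counts were rounded. edgeR 4.0.16 in R 4.3.3 kept 15010 of 18349 genes (filterByExpr, minimum count 10), normalized all 9 libraries by TMM and fitted group as the only term. Benjamini-Hochberg adjustment of the quasi-likelihood p-values ran over all genes tested, and a gene was called at an adjusted p under 0.05 and more than 1.5-fold. SE and 95% intervals came from the F statistic. Approximate TPM used GENCODE M21 transcript lengths. Log2 ratios of counts, each with 0.5 added, were compared by exact two-sided permutation tests. Genes named are the 9, list genes called between the injured groups, the 2 largest called changes per list after injury and the 5 most alike genes. Tcf7, Lef1, Prkcq, Ptprc, Cd8b1 and Cpa3, and the genes at 0 in Sham, were named after their values were seen. Alternatives covered normalization, filters, DESeq2 1.42.0, the libraries fitted, a Y-linked covariate, single libraries left out and a replicate block. The procedure was tested on simulated data. The combined table of the series was not used, and results on a few list genes are not reported here.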

Additional observations from a re-analysis of the deposited data

How the results depend on the processing

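After injury, the 9 genes stayed higher under every alternative in which they were tested, and only Cd8a and Zap70 lost their call, each when single libraries were left out: 7 to 9 of the 9 were called with 1 library left out, 8 when only the 6 libraries compared were fitted, and 6 of 6 tested under an approximate TPM filter of 2, which removed Cd3d, Cd3e and Cd8a. Between the injured groups, 0 of the 9 were called with any library left out, and DESeq2 called 1 lower (Cd3g). For the label VEGFR3 iLECko against Sham, 6 to 8 were called higher with 1 library left out, 5 under the TPM filter, 5 with only the 6 libraries fitted and 6 with the Y-linked covariate, under which Cd3e (2.93, adjusted p = 0.0536 by edgeR) and Cd8a (3.03, adjusted p = 0.116 by edgeR) were not called. Fewer genes tested is part of the TPM filter and of the fits of 6 libraries, and otherwise the cause was not tested.

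Other genes of T cell receptor signaling called higher were 20 after injury and 17 for the label VEGFR3 iLECko against Sham under the TPM filter, and 31 to 33 and 28 to 30 with 1 library left out, with 4 to 5 and 3 to 4 called lower. Between the injured groups, the 1 called lower became 0 with library size only, with only the 6 libraries fitted and with the replicate block, 2 with upper quartile scaling and with the TPM filter, 3 with DESeq2 and with no fold threshold, and 0 to 1 with 1 library left out.

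Signs turned for Cd8a between the injured groups (-0.39, -0.22 and -0.70 on the log2 scale without injured VEGFR3 fl/fl replicate 2, without its replicate 3 and without replicate 2 under the label VEGFR3 iLECko, with 1.15 the highest value when 1 library was left out), and for Zap70 against Sham under the label VEGFR3 iLECko (-0.024 with library size only and -0.071 without Sham replicate 1). The log2 difference of the ratio of Cd4 to the CD3 genes between that label and Sham was -1.85, and 0.12 when Cd3e alone stood for the CD3 genes, where those after injury and between the injured groups went from -2.74 to -1.10 and from 0.89 to 1.22. With 1 library left out, this ratio differed by -3.32 to -2.42 after injury, 0.49 to 1.22 between the injured groups and -2.43 to -1.53 for the label against Sham, and the ratio of Cd4 to Cd8a by 0.98 to 2.12, -1.48 to -0.21 and 0.22 to 1.17.

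Same-numbered libraries did not deviate together: 1 of 9 pairs had a correlation of deviations over 0.1, in a range of -0.37 to 0.163. With the replicate block, 11 genes in all were called higher and 13 lower between the injured groups, against 86 and 70 without it, and 344 and 282 by DESeq2. The block changed the call of 0 of the 9 genes. Over all genes, the median log2 change after injury was 0.01, and -0.16 with scaling by library size only. At these depths a level under 3 counts, 0.166 to 0.182 CPM, cannot be told from 0, which limits the CD3 genes in Sham.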

Other observations

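Of the 8 dendritic cell genes, 2 are set beside Cd4 here, chosen after their values were seen. Cd209a, which encodes a lectin of dendritic cells and macrophages, had 110, 88 and 164 counts in replicates 1 to 3 of injured VEGFR3 fl/fl and 97, 61 and 30 under the label VEGFR3 iLECko, where Cd4 had 553, 445 and 790, then 609, 424 and 289. Itgax, which encodes CD11c, had 4189, 2715 and 4119, then 3247, 2946 and 1535 counts. In these 3 genes, replicate 3 under the label VEGFR3 iLECko was lowest. Others of the list went otherwise, such as Xcr1 with 8, 1 and 14 and Zbtb46 with 158, 146 and 202 counts in replicates 1 to 3 under that label, both highest there in replicate 3, and Flt3 and Ccr7 were not lowest in it. The summed CD3 genes had 134, 147 and 113, then 42, 73 and 43 counts. Their replicates 1 and 3 under that label were nearly equal, so which was lowest cannot be told.

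Cd28, a costimulatory receptor of T cells also chosen after its values were seen, had 19, 23 and 27 counts in Sham, 69, 79 and 56 in injured VEGFR3 fl/fl and 41, 37 and 28 under the label VEGFR3 iLECko. It rose after injury (log2 fold change 1.63, adjusted p = 0.000571 by edgeR) and was not called between the injured groups (-0.98, adjusted p = 0.0766 by edgeR) or for that label against Sham (0.65, adjusted p = 0.0621 by edgeR), although the libraries of that label lay above those of Sham.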
